A study of Mus musculus with 5 samples.

Results

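The genes described here are 9 CC chemokines: Ccl2, Ccl7, Ccl8, Ccl12, Ccl11, Ccl9, Ccl3, Ccl4 and Ccl20. They were taken as every probe set whose only gene symbol in the platform annotation is one of these names, which gave 10 of the 45101 probe sets on each array and 9 of 18194 measured genes. Ccl9 had 2 probe sets and each other gene had 1. RNA came from cultured cells labelled as aortic endothelial cells of C57BL/6J background, at 24 h by title. The titles put 3 arrays in control and 2 in TNF-LTBR. The names stand for tumour necrosis factor and for the lymphotoxin beta receptor. Which agonists were added, and at what dose, is not given in the sources used here, and the treatment text names only PBS for all 5 samples. Whether each array stands for its own culture or animal is not stated, and the spread behind the p-values is that between arrays, possibly a technical one.

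CC chemokines are small secreted proteins with adjacent cysteines near their start, and they steer leukocytes through G protein-coupled receptors. Endothelium holds them on heparan sulfate at its surface, where rolling leukocytes meet them. Ccl2, Ccl7, Ccl12 and Ccl8 belong to the monocyte chemoattractant proteins, Ccl11 is eotaxin, which attracts eosinophils through Ccr3, and Ccl9, Ccl3 and Ccl4 belong to the macrophage inflammatory proteins. Ccl20 attracts mainly dendritic cells and lymphocytes through Ccr6, so the set is wider than chemokines for monocytes and eosinophils. TNF is a well-known inducer of several of them through NF-kB.

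Values are intensities on a linear scale, 1 per probe set and array, scaled by the authors. Array medians lay between 109.9 and 120.7, and the lower quartile between 31.9 and 34.9, so an intensity of under 30 is dim. The arrays were most alike across the titles. Over the 10916 genes tested, which are not independent replicates, Pearson's r of log2 values was 0.976 between control array 2 and TNF-LTBR array 1 and 0.978 between control array 3 and TNF-LTBR array 2, against 0.875 to 0.946 for the other pairs. Of 12 endothelial markers 5 passed the brightness filter, 7 lay above the lower quartile on every array and 1 lay below it on every array. That 1 was Vwf, at 2.3 to 7.2, and Tie1 lay between 2 and 45.5. Pecam1 lay between 52.6 and 198.9, Cdh5 between 28.7 and 235.6, Kdr between 255.1 and 364.2 and Eng between 1550.2 and 1858.3. The summed intensity of 12 endothelial markers, of which Eng was the brightest, was 2702 to 3948 in control and 2603 to 3231 in TNF-LTBR. That of 8 fibroblast and pericyte markers was 20380 to 50180 and 50030 to 57240.

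Ccl2, the main monocyte attractant and ligand of Ccr2, was higher on both TNF-LTBR arrays than on any control array. Control arrays 1 to 3 read 886.6, 3997.3 and 437.8, against 14768.5 and 9852.8 for TNF-LTBR arrays 1 and 2. Control array 2 stood well above the other controls. On the scale log2(intensity + 16), the mean was 10.20 ± 1.61 (SD, n = 3) in control and 13.56 ± 0.41 (SD, n = 2) in TNF-LTBR, a difference of 3.36 with a 95% interval of 1.01 to 5.70. That is 10.2-fold on this scale and the 2nd highest difference of the 10916 tested genes. In single arrays, the ratio of a TNF-LTBR intensity to a control intensity ran from 2.46, for TNF-LTBR array 2 over control array 2, to 33.7, for TNF-LTBR array 1 over control array 3.

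Ccl7, a monocyte and eosinophil attractant that binds several CC receptors, lies beside Ccl2 on chromosome 11. In array order the controls read 256.6, 2870 and 106.4, and the TNF-LTBR arrays 7589.9 and 1905.5. The groups overlapped, because TNF-LTBR array 2 lay below control array 2, but 5 of the 6 pairs of a TNF-LTBR and a control array were higher in TNF-LTBR. The log2 mean was 8.84 ± 2.37 (SD, n = 3) in control and 11.90 ± 1.40 (SD, n = 2) in TNF-LTBR. The difference of 3.06 had a 95% interval of -0.62 to 6.74 and was the 4th highest of the tested genes. Leaving out control array 2 gave 4.39, and leaving out TNF-LTBR array 1 gave 2.07.

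Ccl8, another monocyte chemoattractant protein, did not follow the titles. Its intensity in control arrays 1 to 3 was 361.3, 6760 and 254.7, against 9299.9 and 514.7 in TNF-LTBR arrays 1 and 2. Control array 2 and TNF-LTBR array 1 were both high, and the other 3 arrays were all low. The log2 difference was 1.33 (95% interval -3.37 to 6.03). Leaving out TNF-LTBR array 1 gave -0.74, and leaving out TNF-LTBR array 2 gave 3.40.

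Ccl11, the eosinophil attractant eotaxin, split the arrays furthest and not by title. Control arrays 1 to 3 read 217.8, 7921.2 and 2.6, against 7872.4 and 5.6 for TNF-LTBR arrays 1 and 2. Control array 2 and TNF-LTBR array 1 were level, at a ratio of 0.994, and control array 3 and TNF-LTBR array 2 both lay below the lower quartile of their arrays. The log2 values spanned 8.74 within control and 8.51 within TNF-LTBR, each the widest such span of the 10916 tested genes. The median gene spanned 0.42 within control and 0.29 within TNF-LTBR. The difference between group means, 0.34 (95% interval -8.38 to 9.07), turned to -1.72 when control array 3 was left out and to -3.91 when TNF-LTBR array 1 was. It was 4.60 when TNF-LTBR array 2 was left out.

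Ccl12, a ligand of Ccr2 that lies between Ccl11 and Ccl8, was dim. In array order the controls read 5.9, 5.6 and 3.7, and the TNF-LTBR arrays 63 and 5.6. TNF-LTBR array 1 alone lay above the lower quartile of its array. The log2 difference was 0.97, and 0.038 without that array.

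**Figure D1:**
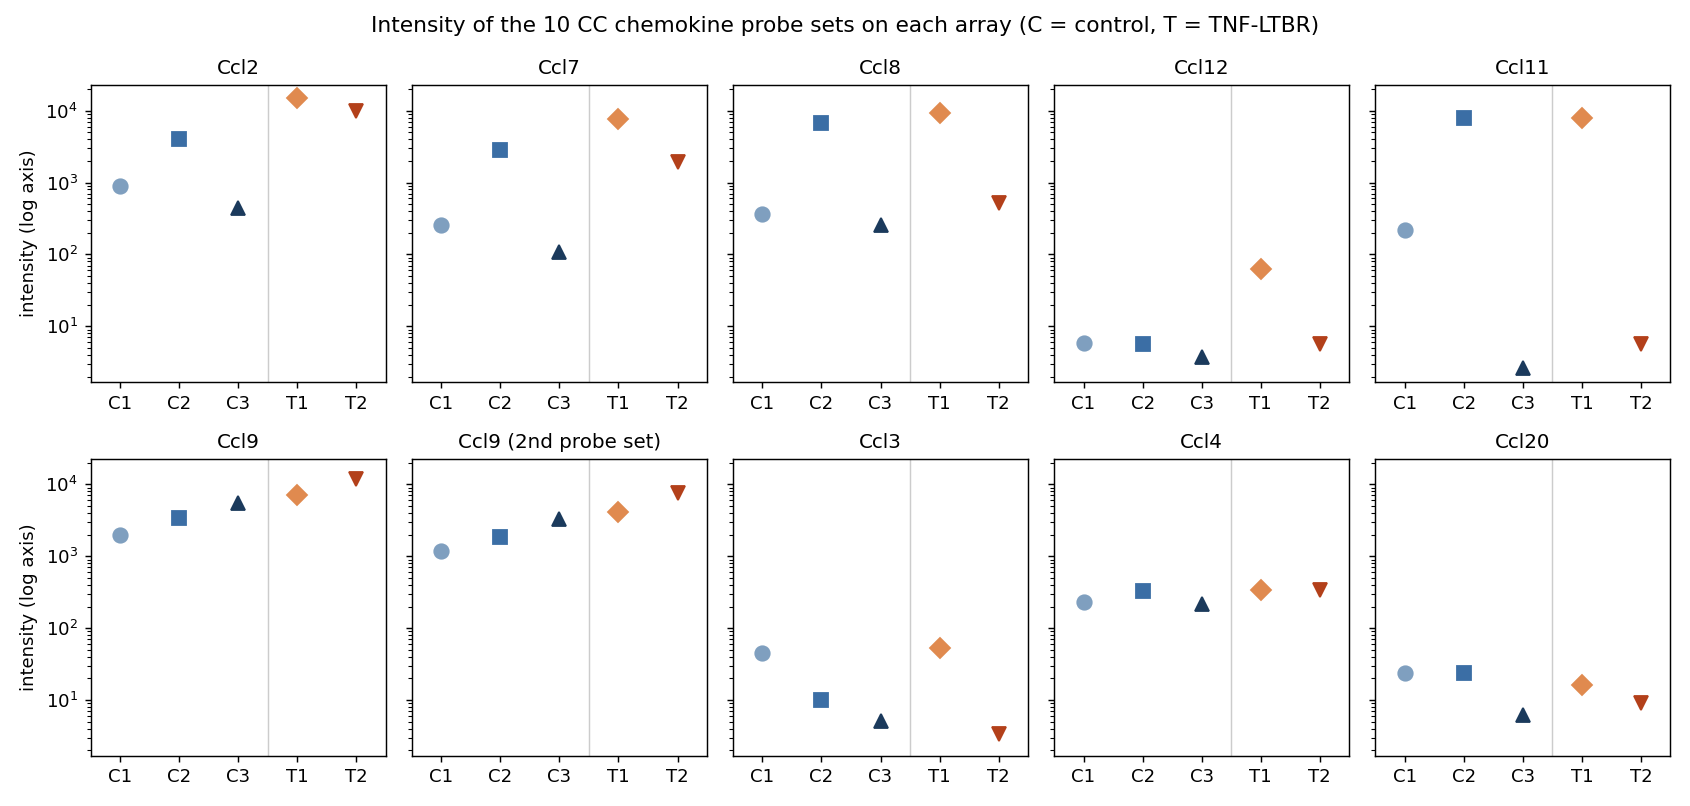
Intensity on a log axis of each of the 10 probe sets, 1 point per array, with control arrays 1 to 3 (C1 to C3) at the left and TNF-LTBR arrays 1 and 2 (T1, T2) at the right of each panel. Ccl2 and both Ccl9 probe sets were higher on both TNF-LTBR arrays than on any control, while Ccl11 lay at 7921.2 and 7872.4 on C2 and T1 and at 2.6 and 5.6 on C3 and T2.

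Along chromosome 11 the RefSeq order of coding genes is Ccl2, Ccl7, Ccl11, Ccl12 and Ccl8 with no other coding gene between them. Leaving out Ccl12, the spans of log2 values within control were 3.15 for Ccl2, 4.56 for Ccl7, 8.74 for Ccl11 and 4.65 for Ccl8. Within TNF-LTBR they were 0.58, 1.99, 8.51 and 4.13 in the same order of genes. The span was thus widest at Ccl11 and narrowest at Ccl2 in both groups. The ratio of TNF-LTBR array 2 to control array 2 was 2.46 for Ccl2, 0.664 for Ccl7, 0.000707 for Ccl11 and 0.0761 for Ccl8. The Ccl11 ratio sets a value below the lower quartile of its array against a bright one. For the alike arrays TNF-LTBR 1 and control 2, the ratios were 3.69 for Ccl2, 2.64 for Ccl7, 0.994 for Ccl11 and 1.38 for Ccl8. For TNF-LTBR 2 and control 3 they were 22.5, 17.9 and 2.02 for Ccl2, Ccl7 and Ccl8, and both arrays were dim for Ccl11. These array pairs were picked after the values were seen and have no replicate, so they are descriptions.

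**Figure D2:**
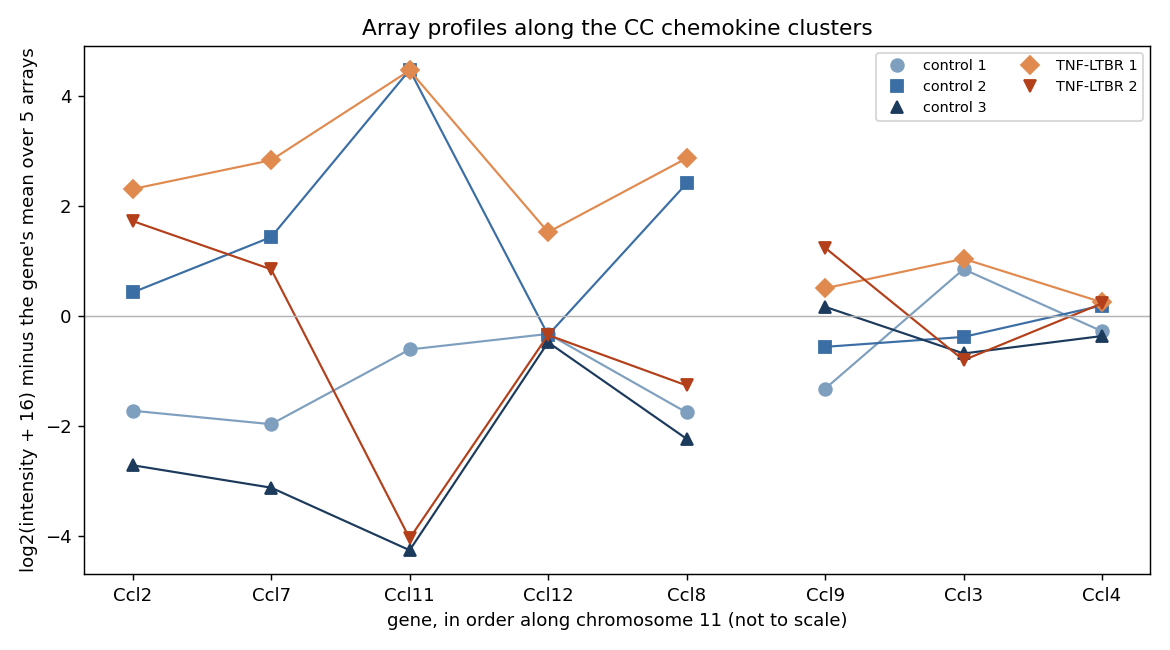
Each gene's log2(intensity + 16) minus its own mean over the 5 arrays, for the 8 genes on chromosome 11 in their order along it (spacing not to scale), with 1 line per array and a break between the 2 groups of neighbours. At Ccl2 the TNF-LTBR arrays are the upper 2, at Ccl11 control 2 and TNF-LTBR 1 coincide at the top and control 3 and TNF-LTBR 2 lie at the bottom, and at Ccl9 the TNF-LTBR arrays are again the upper 2.

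Markers of several cell types were also uneven between arrays. The summed intensity of 10 macrophage markers was 3353, 6468 and 1762 in control arrays 1 to 3, against 7089 and 1574 in TNF-LTBR arrays 1 and 2. The range was 1762 to 6468 in control and 1574 to 7089 in TNF-LTBR. Lyz2 was the brightest of them on control array 2 and TNF-LTBR array 1, at 3409.2 and 3933.6. It was at 186.3 on control array 3 and 66.5 on TNF-LTBR array 2. Cd68, Csf1r and Tyrobp were also highest on control array 2 and TNF-LTBR array 1. Cd14 varied less, between 600.2 and 1081.1. None of the 10 was listed at 0, 6 passed the brightness filter, and the leukocyte marker Ptprc lay between 12.3 and 75.2. Control array 2 and TNF-LTBR array 1 had the 2 highest sums, and they also had the 2 highest values of Ccl7, Ccl8 and Ccl11. For Ccl2, TNF-LTBR array 2 had the lowest macrophage sum and the 2nd highest Ccl2 intensity. Control array 2 and TNF-LTBR array 1 also had the 2 highest sums of 7 T, B and NK cell markers, which lay between 541.3 and 777. Cd8a was the brightest of the 7 and the only 1 to pass the brightness filter. It was at 308.8, 460 and 298.4 in the controls against 459.7 and 284.3 with TNF-LTBR. Of the rest, Cd3g, Ms4a1 and Nkg7 were highest on control array 3, and Cd3e, Cd4 and Cd79a on control array 2 or TNF-LTBR array 1. Thy1, a fibroblast and pericyte marker, was at 2583.1, 12215.1 and 154.6 in the controls against 8871.2 and 127.9 with TNF-LTBR. Emcn, an endothelial marker, was at 220.9, 660.8 and 81.4 against 477.3 and 78.4. Thy1 and Emcn were thus also highest on control array 2 and TNF-LTBR array 1 and lowest on control array 3 and TNF-LTBR array 2. They were picked from their lists, and several other members did not have that order. Lum and Dcn, also fibroblast and pericyte markers, were highest on control array 3 and TNF-LTBR array 2. Lum was at 1145.4, 818 and 12967.3 in the controls against 1103.8 and 12933.2 with TNF-LTBR. Egfl7, another endothelial marker, was highest on TNF-LTBR array 2, at 331.4. The summed intensity of 8 smooth muscle markers did not have the order of Thy1 and Emcn. It was 14630, 11970 and 4211 in the controls against 6805 and 4036 with TNF-LTBR. The part of these cell types in the chemokine values was not tested. In such cultures fewer cells of a type and less RNA per cell cannot be told apart.

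Ccl9, a ligand of Ccr1 made by macrophages and other cells, lies in the neighbouring group of chemokines between Ccl5 and Ccl6. Its brighter probe set read 1972.1, 3356 and 5571.2 in the controls, in array order, against 7038.5 and 11752.4 with TNF-LTBR. The groups did not overlap. The control order was not that of Ccl2: control array 3, the lowest for Ccl2, was the highest here. The log2 mean was 11.71 ± 0.75 (SD, n = 3) in control and 13.15 ± 0.52 (SD, n = 2) in TNF-LTBR, a difference of 1.45 (95% interval 0.23 to 2.66), or 2.72-fold. Its other probe set gave 1169.3, 1857 and 3317.7 in the controls against 4107 and 7576.6 with TNF-LTBR, with the same order of arrays. The log2 difference there was 1.52. On the brighter probe set, TNF-LTBR array 1 was 2.10-fold control array 2, and TNF-LTBR array 2 was 2.11-fold control array 3. These 2 pairs were picked after the values were seen. Over all 6 pairs the ratio ran from 1.26, for TNF-LTBR array 1 over control array 3, to 5.96, for TNF-LTBR array 2 over control array 1. The difference ran from 1.07 to 1.82 when any 1 array was left out.

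Ccl4, which attracts monocytes and T cells, showed a small step. Its intensity in control arrays 1 to 3 was 232.3, 327.7 and 217.9, against 342 and 337 in TNF-LTBR arrays 1 and 2. The groups did not overlap, but TNF-LTBR array 2 exceeded control array 2 by a ratio of only 1.03. The log2 mean was 8.08 ± 0.30 (SD, n = 3) and 8.47 ± 0.014 (SD, n = 2), and the difference of 0.39 had a 95% interval of -0.20 to 0.98. Its neighbour Ccl3, a ligand of Ccr1, was dim on 3 of the 5 arrays, at 45.1, 10 and 5.1 in the controls against 53.7 and 3.4 with TNF-LTBR. Its high arrays were control array 1 and TNF-LTBR array 1, and the groups overlapped. The Ccl3 difference of 0.19 was -0.73 without TNF-LTBR replicate 1 and -0.12 without control replicate 3.

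Ccl20, on chromosome 1, was dim on all 5 arrays and the only one of the 9 genes with a lower mean in TNF-LTBR. Control arrays 1 to 3 read 23.5, 23.7 and 6.3, against 16.4 and 9 for TNF-LTBR arrays 1 and 2. The groups overlapped, and the log2 difference was -0.20 (95% interval -1.06 to 0.66). It ran from -0.48 to -0.013 when any 1 array was left out.

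Upstream sequences are shown for 3 of the genes because their arrays behaved differently: Ccl9, higher on both TNF-LTBR arrays, Ccl8, high on 1 array of each group, and Ccl20, dim throughout. They are RefSeq sequences of GRCm38.p6, the 250 bases before the gene's start, 5′ to 3′ on the gene's strand. The table held 5 of the 9 genes. Capitals mark matches, on either strand, to 2 NF-kB type motifs, AP-1 (TGACTCA or its reverse complement TGAGTCA), a STAT6 type motif and TATAAA. The NF-kB type motifs are a narrow and a wide one, and every narrow match is also a wide one.
Ccl9 at chr11:83578637-83578886, minus strand: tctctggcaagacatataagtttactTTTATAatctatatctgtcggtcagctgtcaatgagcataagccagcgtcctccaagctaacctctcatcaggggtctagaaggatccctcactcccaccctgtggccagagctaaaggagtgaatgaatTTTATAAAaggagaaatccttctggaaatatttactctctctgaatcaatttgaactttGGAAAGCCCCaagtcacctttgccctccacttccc
Ccl8 at chr11:82114935-82115184, plus strand: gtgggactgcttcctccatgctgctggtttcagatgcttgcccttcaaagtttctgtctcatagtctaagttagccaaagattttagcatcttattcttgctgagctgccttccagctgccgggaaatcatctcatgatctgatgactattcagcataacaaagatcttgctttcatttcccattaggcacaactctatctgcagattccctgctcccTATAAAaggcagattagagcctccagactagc
Ccl20 at chr1:83116516-83116765, plus strand: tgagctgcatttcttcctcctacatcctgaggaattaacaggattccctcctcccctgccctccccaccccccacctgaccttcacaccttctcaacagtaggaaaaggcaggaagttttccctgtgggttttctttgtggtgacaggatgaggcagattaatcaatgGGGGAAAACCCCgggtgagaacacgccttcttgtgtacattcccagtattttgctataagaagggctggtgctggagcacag

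Ccl9 held 1 match to the narrow NF-kB type motif, starting 35 bases before the gene's start, and Ccl20 held 1, starting 80 bases before it. Of all 32851 such windows, 1.41% held this motif and 45.8% held the wide one. Ccl8 held neither in this window, nor did Ccl12 and Ccl3, whose windows are not shown. Ccl8 had 1 TATAAA, starting 32 bases before its start, and Ccl9 had 3. TATAAA was in 12.4% of windows. None of the windows shown held the AP-1 or STAT6 type letters, which 4.46% and 5.85% of windows held. A match is a description of letters and not a binding site. Ccl9 and Ccl20 both held the narrow motif, while Ccl9 lay between 1972.1 and 11752.4 and Ccl20 between 6.3 and 23.7 over the arrays. A link between motif and intensity was not tested.

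Of the 9 genes, 6 passed the brightness filter and entered the test over 10916 genes: Ccl2, Ccl7, Ccl8, Ccl11, Ccl9 and Ccl4. The other 3, Ccl12, Ccl3 and Ccl20, were fitted with all 18194 genes. None of the 9 passed the threshold (limma, Benjamini-Hochberg adjusted p 0.999 for each of the 6 and 1.000 for each of the 3). Over all tested genes the share called was 0%, with 192 genes at an unadjusted p under 0.05, 0.962% of genes higher and 0.797% lower. By unadjusted limma p, Ccl2 (0.0139) ranked 42nd and Ccl9 (0.0276) ranked 96th of the tested genes. An exact two-sided permutation test of 3 against 2 arrays cannot go below 0.1, and gave 0.2 for Ccl2, Ccl9 and Ccl4, 0.3 for Ccl7 and Ccl12, 0.5 for Ccl8, 0.6 for Ccl20 and 0.8 for Ccl11 and Ccl3.

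For 3 of the 9 genes, Ccl2, Ccl9 and Ccl4, each TNF-LTBR value exceeded every control value, and for 0 each was lower. Over all measured genes these shares were 8.6% and 6.38%. With median centring of the arrays Ccl4 overlapped and 2 genes were left, and with quantile normalization Ccl12 joined the 3 as a 4th. By mean, 8 of the 9 were higher in TNF-LTBR, against 52.3% of all measured genes. So were the 6 that passed the filter, against 49.3% of tested genes. The median difference was 0.97 on the log2 scale, against 0.014 over all 18194 genes. It is the value of Ccl12, which was dim on 4 of the 5 arrays, and it was 0.48 with a pseudocount of 64 and 1.36 with a pseudocount of 1. Leaving out TNF-LTBR array 1 gave a median of 0.038, and leaving out array 2 gave 1.91. Groups without overlap numbered 5 when control array 2 was left out and 7 when TNF-LTBR array 2 was. With fewer arrays, groups without overlap are more common for any gene. The share over all genes is not given for these fits, so the 2 counts cannot be set against 8.6% and 6.38%.

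**Figure D3:**
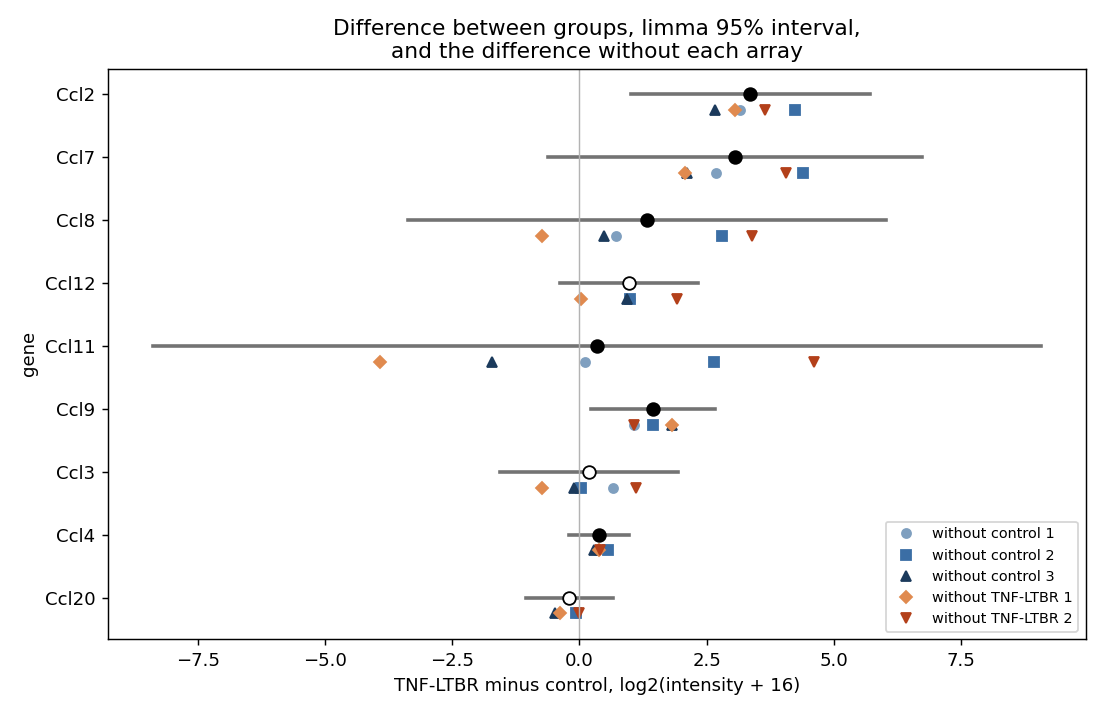
TNF-LTBR minus control on the log2(intensity + 16) scale for each gene, as a circle (filled where the gene passed the brightness filter) with its limma 95% interval, and below it the difference after leaving out each array in turn. The intervals of Ccl2 and Ccl9 lie above 0, that of Ccl11 runs from -8.38 to 9.07, and the points of Ccl8, Ccl11 and Ccl3 fall on both sides of 0.

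The genes with array profiles nearest to each chemokine were found by the mean absolute difference, over the 5 arrays, between log2 values centred on each gene's own mean. For Ccl2 these were Rgs5 (0.59), Ccl7 (0.61), Nfkbie (0.72), Vegfc (0.79) and 4930447F24Rik (0.81) among the tested genes. Rgs5, which encodes a regulator of G protein signalling and is a pericyte marker, had intensities of 1086.4, 9401.5 and 1006.5 in the controls against 13874.5 and 8192.9 with TNF-LTBR. For Ccl7 they were Rgs5 (0.53), Ccl2 (0.61) and S1pr3 (0.70). For Ccl8 they were Il6 (0.29), Pla1a (0.34) and Slc5a7 (0.34). Il6, an inflammatory cytokine, was at 39.1, 1184.6 and 33.5 in the controls against 1195.7 and 33.7 with TNF-LTBR, so it too was high on control array 2 and TNF-LTBR array 1 only.

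For Ccl11 the nearest were Cck (1.08), Rgs16 (1.13) and Lyz1 (1.26), all at larger distances. Cck, which encodes a peptide hormone, was at 1.8, 3125.9 and 1.2 in the controls against 4187.5 and 8.6 with TNF-LTBR. For Ccl9 they were Slc16a9 (0.26), Shmt1 (0.27) and Sncg (0.27), and for Ccl4 Phldb1 (0.025), Krtap12-1 (0.033) and Me2 (0.040), where small distances go with a nearly flat profile. Between members, Ccl2 and Ccl9 were 1.31 apart, and Ccl9 ranked 89th among the genes nearest to Ccl2.

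Transcripts of CC chemokine receptors, which sit mostly on leukocytes, were measured for 13 of 14 listed genes. Of the 13, 7 lay above the lower quartile on every array and 2 below it on every array. Only 3 passed the brightness filter, and 0 of the 3 passed the threshold (limma), with 2 higher and 1 lower by mean and a median difference of 0.10. Ccrl2, a receptor-like protein on endothelium, was at 153, 111.7 and 102.6 in the controls against 178.7 and 212.9 with TNF-LTBR. That was a log2 difference of 0.63 without overlap. Among the 3 it alone lay above every control on both TNF-LTBR arrays, as did 6.94% of all tested genes. The scavenging receptors Ackr1 and Ackr4 differed by 0.10 and -0.04, and both signs turned when single arrays were left out. Ccr2, the receptor of Ccl2, lay between 46.7 and 112.3 over the 5 arrays, and Ccr3, the receptor of Ccl11, between 5.2 and 18.7.

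Among other CC chemokines 9 of 12 were measured and 4 tested, with 0 past the threshold (limma), 2 higher, 2 lower and a median of -0.056. That median was 0.92 without TNF-LTBR replicate 2. Ccl5, which attracts T cells and monocytes, was at 145.7, 11.8 and 8.6 in the controls against 1497.5 and 750.4 with TNF-LTBR and did not overlap. It was the only 1 of the 4 above every control on both TNF-LTBR arrays, against 6.94% of all tested genes. Ccl6, the neighbour of Ccl9, was at 572.1, 364 and 117.1 in the controls against 972.4 and 21 with TNF-LTBR. It thus had its lowest value on the array where Ccl9 was highest, and its difference of -0.70 was 1.67 without TNF-LTBR replicate 2. Ccl27a and Ccl28, epithelial chemokines, differed by -0.25 and 0.13.

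Of 15 chemokines of the CXC, CX3C and XC classes, 9 were tested and 0 passed (limma), with 5 higher, 4 lower and a median of 0.07. Cxcl16, a membrane-bound chemokine, was at 827.8, 642.9 and 1171 in the controls against 2147.6 and 2875.8 with TNF-LTBR. It was 2.87-fold and without overlap, with the highest control on array 3 as for Ccl9. Of the 9 it alone was above every control on both TNF-LTBR arrays, against 6.94% of all tested genes. Cxcl5, a neutrophil attractant, was at 30.5, 566.1 and 42.7 in the controls against 891.4 and 55.7 with TNF-LTBR, high on the same 2 arrays as Ccl8. Its difference of 1.13 was -0.70 without TNF-LTBR replicate 1. Cxcl10, an interferon-induced chemokine, differed by 0.69, which was -0.55 without TNF-LTBR replicate 2. Cxcl13, a B cell attractant, differed by -0.22.

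The NF-kB subunits and inhibitors, which control transcription of many chemokine genes, had 0 of 9 tested genes past the threshold (limma), 8 higher and 1 lower, and a median of 0.63. For 4 of the 9 each TNF-LTBR value exceeded every control value, against 6.94% of tested genes. That count was 2 under the stricter filter of 40% of genes, which Nfkbie and Relb did not pass. It was also 2 when probe sets with shared-sequence name suffixes were left out, a rule that drops the Nfkb2 and Nfkbie probe sets used here. The shares over all genes in these settings are not given. Nfkb2, which encodes a subunit of the non-canonical pathway, was at 417.7, 321.6 and 251.5 in the controls against 1154.8 and 1201.9 with TNF-LTBR. Nfkbie, an inhibitor, was at 183.7, 191 and 85.9 and at 1429.4 and 938.4. Relb and Nfkbia were 1.54-fold and 1.79-fold. None of these 4 genes had a control array within the TNF-LTBR range.

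Factors that bind chemokine mRNAs and set their decay had 0 of 6 tested genes past the threshold (limma) and a median of -0.0030, with Zfp36l1 at 0.52, Zc3h12c at -0.32, Elavl1 at 0.10 and Zfp36l2 at -0.20. Heparan sulfate enzymes and proteoglycans, on which chemokines are held, had 0 of 10 and a median of -0.0039. The proteoglycans Gpc1 and Sdc3 did not overlap, at 2.23-fold and 1.28-fold. They were 2 of the 10, against 6.94% of all tested genes with both TNF-LTBR arrays above every control. Single arrays moved both. On the log2 scale Gpc1 was 1.16, and 0.67 without control array 1. Sdc3 was 0.35, and 0.15 without TNF-LTBR array 2. Sdc2 differed by -0.21. The sulfotransferase Hs2st1 was at 1822.6, 3525.3 and 1841.8 in the controls against 3545.8 and 1873.1 with TNF-LTBR, so the same 2 arrays as for Ccl8 were high. Its difference of 0.18 was -0.28 without TNF-LTBR replicate 1. Of the chemokine-cleaving proteases 2 of 7 were tested, Mmp14 (0.22) and Mmp2 (-0.24), and 0 passed, with a median of -0.012.

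Genes of monocyte growth and adhesion had 0 of 6 tested genes past the threshold (limma), 5 higher and 1 lower, and a median of 0.35, which was 0.87 without TNF-LTBR replicate 2. Vcam1, a ligand for monocyte integrins, was 1.21-fold (11941.3 to 13359.6 in control, 14376.2 and 16655.8 in TNF-LTBR). Icam1 and Cd44, both adhesion molecules, differed by 1.62 and 0.64 with overlap. Without TNF-LTBR array 1 they differed by 0.58 and 0.13, and without TNF-LTBR array 2 by 2.66 and 1.15. Csf1, the growth factor of monocytes, was at 5396.5, 10776.6 and 4974.1 in the controls against 13053 and 6130.8 with TNF-LTBR, and its difference of 0.43 was -0.11 without TNF-LTBR replicate 1.

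Genes of the type 2 response, in which eotaxin takes part, had 0 of 5 tested genes past the threshold (limma), all 5 higher by mean with overlap, and a median of 0.67. That median was 0.042 without TNF-LTBR array 1, 0.085 without control array 1 and 0.35 without control array 3. Il33, an alarmin, was at 448.6, 3080.5 and 782.2 in the controls against 3627.9 and 747 with TNF-LTBR, and the receptor chain Il4ra at 1341.8, 3255.9 and 1361.4 and at 3042.3 and 1381.9. Both were high on control array 2 and TNF-LTBR array 1, where Ccl11 was high. Their differences were -0.46 and -0.39 without TNF-LTBR replicate 1. Il13ra1 differed by 0.69, and Tslp, an epithelial cytokine, by 1.22, with values of 255.8, 76.7 and 112.4 in the controls against 214.6 and 495.3 with TNF-LTBR. The Tslp difference was 0.64 without TNF-LTBR array 2 and 1.79 without array 1.

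**Figure D4:**
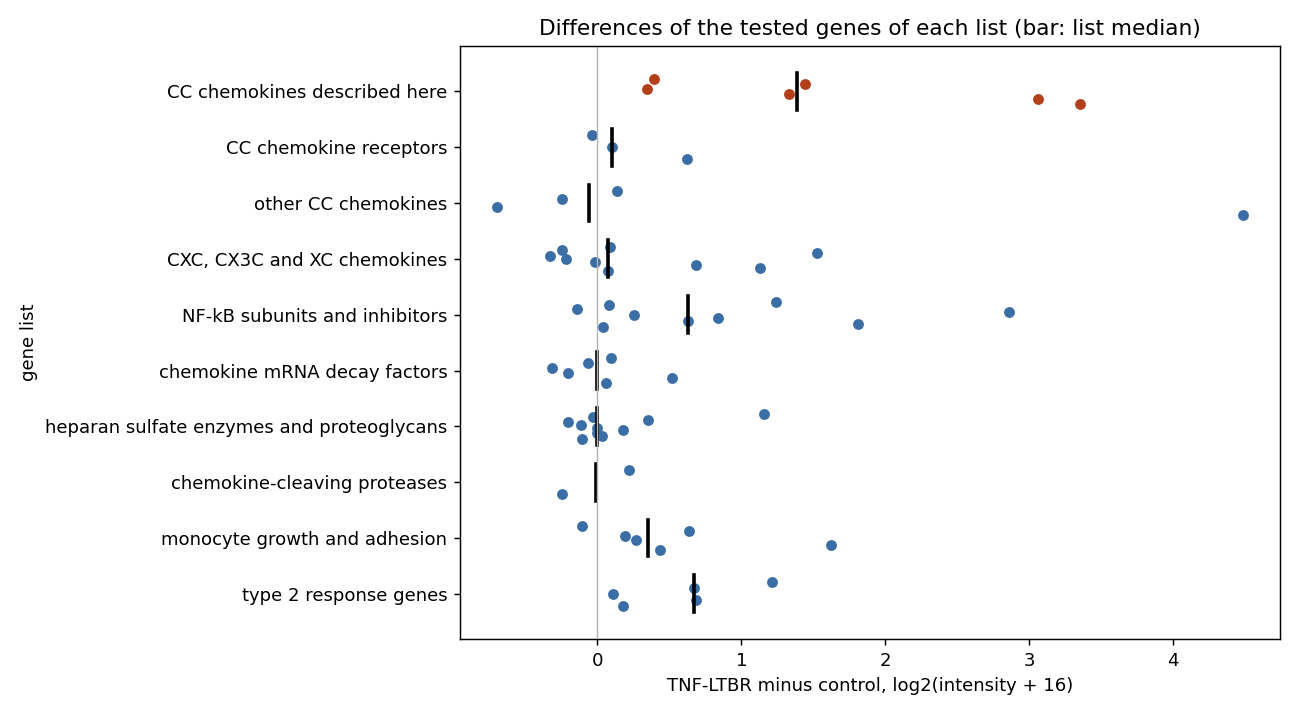
TNF-LTBR minus control on the log2(intensity + 16) scale for the tested genes of each list, 1 point per gene, with a bar at the list's median; points are spread vertically only for legibility. The CC chemokines described here have a median of 1.39 over the 6 that passed the filter, which were not all 9, and run from Ccl11 at 0.34 to Ccl2 at 3.36. Ccl5 of the other CC chemokines, at 4.49, lies furthest to the right.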

How the data were processed

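Per the labels, total RNA of 5 samples (3 control, 2 TNF-LTBR) was biotin-labelled and hybridised to 1-colour arrays. The deposited values are intensities on a linear scale, with a single value for every probe set on an array. GCOS 1.4 is named in the submitters' processing notes, but no summarisation or scaling settings are. Every array had the same trimmed mean of 500 (2% trimmed from each end), which shows that the authors scaled them.

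Symbols came from the platform annotation, in which 34958 probe sets had 1 symbol, 932 several and 9211 none listed. Of several probe sets of a gene the brightest by mean log2(intensity + 16) was used, and the brightest 60% of genes entered the test (10916, mean log2 of at least 7.17, an intensity of 128). Folds are on this scale, which understates changes of dim genes. Groups were compared in R 4.3.3 with limma 3.58.1 (eBayes, trended prior) in a two-sided test. P-values were adjusted by Benjamini-Hochberg across the tested genes, with a threshold of 0.05 and 3 residual degrees of freedom. The script was tested on simulated data. The number of arrays limits the precision.

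The 9 chemokines and the lists were chosen with earlier results of these data known. Named were the 9 chemokines, from each list up to 4 tested genes with the smallest p, and the 5 genes nearest to Ccl2 and 3 nearest to each other chemokine tested. Other genes named (marker genes, Ccr2, Ccr3) were chosen after their values were seen. Alternatives were other pseudocounts (1 and 64), filters (none, or 40% of genes), normalizations, probe set choices, eBayes settings, array weights, a block for the replicate number, and fits without single arrays. Lists were described without a test.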

Additional observations from a re-analysis of the deposited data

How the results depend on the processing

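Over 31 results and 520 fits of a result under an alternative, 0 gene differences passed the threshold in limma. The direction of Ccl2, Ccl7, Ccl12, Ccl9, Ccl4 and Ccl20 held under every alternative that was run on them. Ccl12, Ccl11, Ccl3, Ccl4 and Ccl20 have no value under the stricter filter, which they did not pass. Leaving out 1 array moved the differences from -0.74 to 3.40 for Ccl8, -3.91 to 4.60 for Ccl11 and -0.73 to 1.11 for Ccl3, the median over the 9 genes from 0.038 to 1.91, and the count without overlap from 3 to 7. Fewer arrays make groups without overlap more common for any gene, and the share over all genes is not given for those fits. With all 5 arrays that count was 2 with median centring and 4 with quantile normalization. The median over the 9 genes was 0.48 with a pseudocount of 64 and 0.48 with the replicate block. On leaving out 1 array, the list medians ran from -0.15 to 0.92 for other CC chemokines and from 0.16 to 0.87 for monocyte growth and adhesion. The median of other CC chemokines was -0.26 with a pseudocount of 1. The NF-kB median was 0.97 with every probe set on its own. Array quality weights gave -0.43 for Ccl11.

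With the replicate number as a block, which takes control replicate 3 out of the comparison, the differences were -1.72 for Ccl11, -0.12 for Ccl3, -0.050 for Ackr1, -0.010 for Il13ra1 and -0.028 for Il4ra. It called 0 genes (limma), with 175 at an unadjusted p under 0.05. The labels give no pairing by number. Deviations from the group means correlated over the tested genes at 0.13 between the arrays numbered 1 and at -0.80 between those numbered 2. The deviations of the 2 TNF-LTBR arrays mirror each other, so control array 2 correlated at 0.80 with TNF-LTBR array 1. Control array 3 correlated at 0.81 with TNF-LTBR array 2.

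Among other named genes, leaving out 1 array turned the sign for Ackr1 (-0.084 to 0.28), Ackr4 (-0.20 to 0.12), Ccl6 (-3.07 to 1.67), Cxcl10 (-0.55 to 1.93), Cxcl5 (-0.70 to 2.96), Zfp36l2 (-0.54 to 0.13), Hs2st1 (-0.28 to 0.63), Mmp14 (-0.067 to 0.40), Mmp2 (-0.72 to 0.23), Csf1 (-0.11 to 0.98), Il13ra1 (-0.010 to 1.33), Il33 (-0.46 to 1.80) and Il4ra (-0.39 to 0.74). It kept the sign but moved the difference by over 1.5 times for Ccl27a (-0.39 to -0.095), Ccl28 (0.021 to 0.36), Cxcl13 (-0.34 to -0.092), Nfkbia (0.53 to 1.04), Zfp36l1 (0.090 to 0.94), Zc3h12c (-0.54 to -0.097), Sdc2 (-0.33 to -0.13) and Vcam1 (0.16 to 0.37), and for Ccl12, Ccl20, Gpc1, Sdc3, Icam1, Cd44 and Tslp as given above. The mean of all probe sets gave -0.10 for Elavl1. The cause of these shifts was not tested. No detection calls were used, so the intensity at which a dim probe set exceeds background is unknown here.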
